A study of Marchantia polymorpha with 12 samples.

Results

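Transcripts of the liverwort Marchantia polymorpha were compared between a line with a mutated MpHY5 gene and the male wild type Tak-1, in plants that had received no added UV-B. The comparison was defined by its samples. It used the 3 Mphy5 libraries and the 3 Tak-1 libraries from white light alone, 6 of the 12 libraries measured, and it covered every one of the 18255 genes listed. Both groups were gemmalings, young plants raised from gemmae (the asexual propagules of this liverwort), aged 7 days and kept in white light of 50 µmol per square metre per second. The mutant is a single line, which the labels name Mphy5-1. The sources used here do not give the kind of lesion, or whether the line shares its background with Tak-1 outside the MpHY5 locus. Effects of the lesion and of any other difference between the lines cannot be told apart. The other 6 libraries came from the same lines after 3 h of UV-B at 1.5 µmol and were used to estimate the spread between replicates, which the fit takes from all 12 libraries, and to look up the same differences under UV-B.

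HY5 is a transcription factor of the bZIP class. In the flowering plant Arabidopsis thaliana it accumulates in light, where the ubiquitin ligase COP1 and its SPA partners no longer remove it, and it promotes growth in the form typical of light-grown seedlings. Phytochromes, cryptochromes and the UV-B receptor UVR8 all act on this module there. Known targets in flowering plants include genes of flavonoid synthesis and the RUP genes, whose products switch UVR8 off again.

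Values are normalized reads, that is, reads counted per gene and divided by 1 size factor per library. They are not divided by gene length, so levels are compared between lines and not between genes. The wild type libraries held 53402411 to 59014654 reads and the Mphy5 libraries 49805116 to 66735107. Pearson correlations of log2 values between replicates were 0.9946 to 0.9958 in wild type and 0.9941 to 0.9959 in Mphy5, and the first principal component of the 6 libraries, with 86.6% of the variance, separated the lines. Replicates 1 and 3 of Mphy5 stood at opposite ends of the second component, which held 4.15%. Genes of the male V chromosome took 151549 to 171029 reads per wild type library and 137059 to 183603 per Mphy5 library, while those of the female U chromosome took at most 162, so both lines read as male. The labels do not say whether replicates came from separate cultures, and the p-values therefore cover the spread among these libraries, which may be technical.

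The gene that the mutant is named for was still transcribed. MpBZIP1 (Mp1g16800), taken as MpHY5 from published nomenclature, had 1418, 1319 and 1281 in wild type and 1592, 1522 and 1521 in Mphy5 normalized reads. Every Mphy5 library lay above every wild type library, by a factor of 1.15 on average (log2 fold change 0.21, SE 0.05, limma adjusted p = 0.0056). A lesion can leave the transcript in place, so this level neither checks nor contradicts the label of the mutant.

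The lines differed by small steps in many genes and by large ones in a smaller set. Genes entered the test when 3 or more libraries had a value of 1 or above. Of these 15999 genes, 3986 (24.9%) passed an adjusted p of 0.05 in limma and are said to be called. In Mphy5, 1764 genes (11%) were higher and 2222 (13.9%) were lower. A difference of at least 2-fold was reached by 453 of the higher genes (2.83%) and by 376 of the lower ones (2.35%). The 3 values of one line lay wholly above or below those of the other for 6239 genes (39%). The median log2 fold change over all tested genes was -0.00085, and 0.011 after TMM rescaling.

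**Figure D1:**
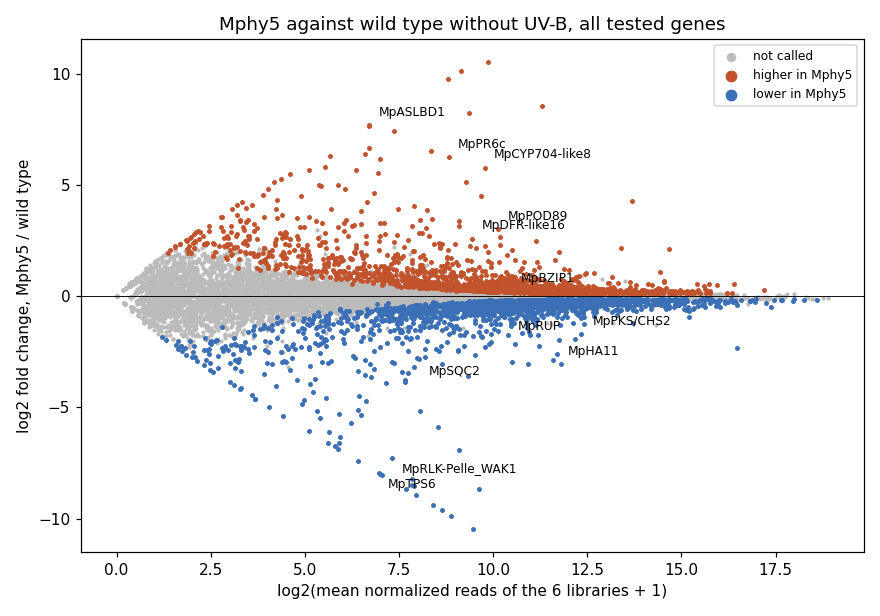
Log2 fold change of Mphy5 over wild type without UV-B (vertical axis) against the log2 mean normalized reads of the 6 libraries plus 1 (horizontal axis) for the 15999 tested genes, with called genes in colour. Most of the 3986 called genes lie near the zero line, and the lower edge on the left and the steep rays are genes with few or no reads in one line.

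Among genes with a symbol, the largest differences in favour of Mphy5 were those of a lateral organ boundaries factor, a proteinase inhibitor of the pathogenesis-related class, a cytochrome P450 and several peroxidases. MpASLBD1 (Mp3g16240), of the family of transcription factors named for asymmetric leaves and lateral organ boundaries, had no read in any wild type library and 194, 250.5 and 178 normalized reads in Mphy5. Against a floor of 3 reads per library it was at least 70.5-fold higher. MpPR6c (Mp8g12160), named for the proteinase inhibitor class of pathogenesis-related proteins, had 12.8, 9.01 and 10.3 in wild type and 1104, 822 and 744 in Mphy5. The P450 monooxygenase gene MpCYP704-like8 (Mp3g10820) had 23.8, 27.0 and 43.1 in wild type and 1765, 1788 and 1641 in Mphy5, a 55.3-fold difference (adjusted p = 4.7e-15). In each of these 3 genes the lines were far apart and replicates of a line close together.

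The peroxidases MpPOD49, MpPOD73, MpPOD76, MpPOD4, MpPOD55 and MpPOD89 were higher by log2 fold changes of 3.01 to 5.0, with limma adjusted p-values of 5.8e-08 to 0.0023. MpPOD76 (Mp5g04880), for example, had 20.2, 43.0 and 10.3 in wild type and 322, 314 and 347 in Mphy5 normalized reads. The sizes of 2 of these depended on 1 library. MpPOD49 stood at 4.35 without wild type replicate 1, against 5.0, and MpPOD73 at 3.38 without wild type replicate 3, against 4.07. MpFBW3 was 10.6-fold higher and MpPR6b, a neighbour of MpPR6c in gene order, 8.82-fold. The chitinase genes MpGH19.3 and MpGH19.9, the glucanase gene MpGH17.10 and the dioxygenase gene MpDOXC15 were higher by log2 fold changes of 3.30, 2.73, 2.73 and 3.08 (limma adjusted p = 0.00087 at most).

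Lower in Mphy5 were, first of all, genes named for terpene synthases and a wall-associated receptor kinase. MpTPS6 (Mp3g13150) had 223, 218 and 305 normalized reads in wild type and no read in Mphy5, at least 92.8-fold lower. MpMTPSL22 (Mp6g11710), named for terpene synthases of the microbial type, had 127, 111 and 117 in wild type and 2.17, 0 and 0 in Mphy5. MpRLK-Pelle_WAK1 (Mp3g01920) had 311, 316 and 321 in wild type and 7.59, 0 and 0 in Mphy5, so that 1 of the 3 Mphy5 libraries held the few reads of the line, and its log2 fold change of -7.27 was -8.31 without Mphy5 replicate 1. All 3 genes were close to or at the floor in the mutant.

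The next falls kept a measurable level in the mutant. MpPOD13 had 183, 202 and 181 in wild type and 8.68, 8.58 and 3.26 in Mphy5 normalized reads (25.8-fold lower, limma adjusted p = 2e-07). MpSQC2, placed by its symbol among the terpene genes, had 397, 420.4 and 561 in wild type and 58.6, 53.8 and 78.2 in Mphy5, 7.15-fold lower. MpCKX2 (Mp5g10910), a cytokinin oxidase and so an enzyme that breaks down cytokinins, had 492, 703 and 740.1 in wild type and 125, 155 and 126 in Mphy5 (4.69-fold lower, adjusted p = 3.6e-10). MpCupin85, MpPR1, MpPPO10, MpOMT4, MpCIS6 and MpGT37.3 were lower by 4.77- to 24.1-fold, with adjusted p-values of 5.2e-07 to 0.0029. MpHA11 and MpHA12, neighbouring genes of plasma membrane proton ATPases, were 3.88- and 4.10-fold lower, and the ammonium transporter gene MpAMT1.5 was 3.93-fold lower.

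Of 13 light-signalling genes in the name table, all of which were tested, 1 was higher and 4 were lower, with a median log2 fold change of -0.05, beside the 24.9% called over all genes tested. None differed by 2-fold or more, and the largest differences were those of MpCRY-DASH and MpRUP. MpRUP (Mp2g18040), whose relatives in Arabidopsis inactivate UVR8, had 1687, 1748 and 1732 in wild type and 962, 921 and 1059 in Mphy5 normalized reads, so that each wild type library exceeded each Mphy5 library, and it was 1.76-fold lower in Mphy5 (log2 fold change -0.81, SE 0.06, limma adjusted p = 3.9e-09). MpCRY-DASH (Mp1g25600), of the cryptochrome and photolyase family, had 1312, 1146 and 1238 in wild type and 744, 599 and 689 in Mphy5 and was 1.82-fold lower (adjusted p = 3.2e-08).

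MpCOP1, the ubiquitin ligase gene, had 2880.5, 2789.7 and 2739.7 in wild type and 2514, 2450.3 and 2348 in Mphy5 normalized reads, a difference of 1.15-fold (limma adjusted p = 0.0039). MpDET1, whose relative in Arabidopsis represses light responses together with DDB1, was lower by 1.12-fold (adjusted p = 0.024). That call was lost in 5 of the alternative fits, with an adjusted p of 0.129 without wild type replicate 2, 0.0883 without the trend and robust options, 0.082 and 0.0787 without Mphy5 replicates 2 and 3, and 0.0525 without wild type replicate 1. The receptors themselves gave no call. MpUVR8 had 6027, 6425 and 6446 in wild type and 6772, 6310 and 6272 in Mphy5 (adjusted p = 0.66), and the phytochrome gene MpPHY, the cryptochrome gene MpCRY and the phototropin gene MpPHOT had log2 fold changes of -0.06, -0.01 and 0.02. MpSPA1, MpDDB1, MpFHY1 and MpFKF were not called either, with -0.05, 0.04, -0.00 and -0.14. With the replicate number as a block MpFKF was called (limma adjusted p = 0.031).

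Of 6 genes of B-box zinc finger factors, which act beside HY5 in flowering plants, 2 were higher. The shares over all genes tested were 11% higher and 13.9% lower. MpBBX1 had 1821, 1874 and 1849.7 in wild type and 2226, 2214 and 2280.5 in Mphy5 normalized reads, with no overlap between the lines (1.21-fold, limma adjusted p = 0.00017). MpBBX5 differed by only 1.08-fold (adjusted p = 0.037). Its call was lost without Mphy5 replicates 1 or 2 or wild type replicates 1 or 3 (adjusted p = 0.114, 0.0796, 0.129 and 0.11), in the fit of only the 6 libraries (0.0537) and without the trend and robust options (0.0548). MpBBX4 and MpBBX2 were not called, at 0.12 and 0.39, but MpBBX2 was called without Mphy5 replicate 3, wild type replicate 2 or wild type replicate 3 (adjusted p = 0.0361, 0.0369 and 0.0443), and MpBBX4 in 5 alternatives. Without Mphy5 replicate 1 the list had 1 higher and 1 lower member, and without Mphy5 replicate 2 or wild type replicate 1 it had 1 higher member. Among 6 clock genes, MpELF3, named for a part of the evening complex of Arabidopsis, was lower: it had 8326, 8381 and 8273 in wild type and 6877, 6671 and 6506 in Mphy5 (1.25-fold, adjusted p = 0.00029). MpTOC1 and MpPRR were not called (-0.09 and -0.06).

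**Figure D2:**
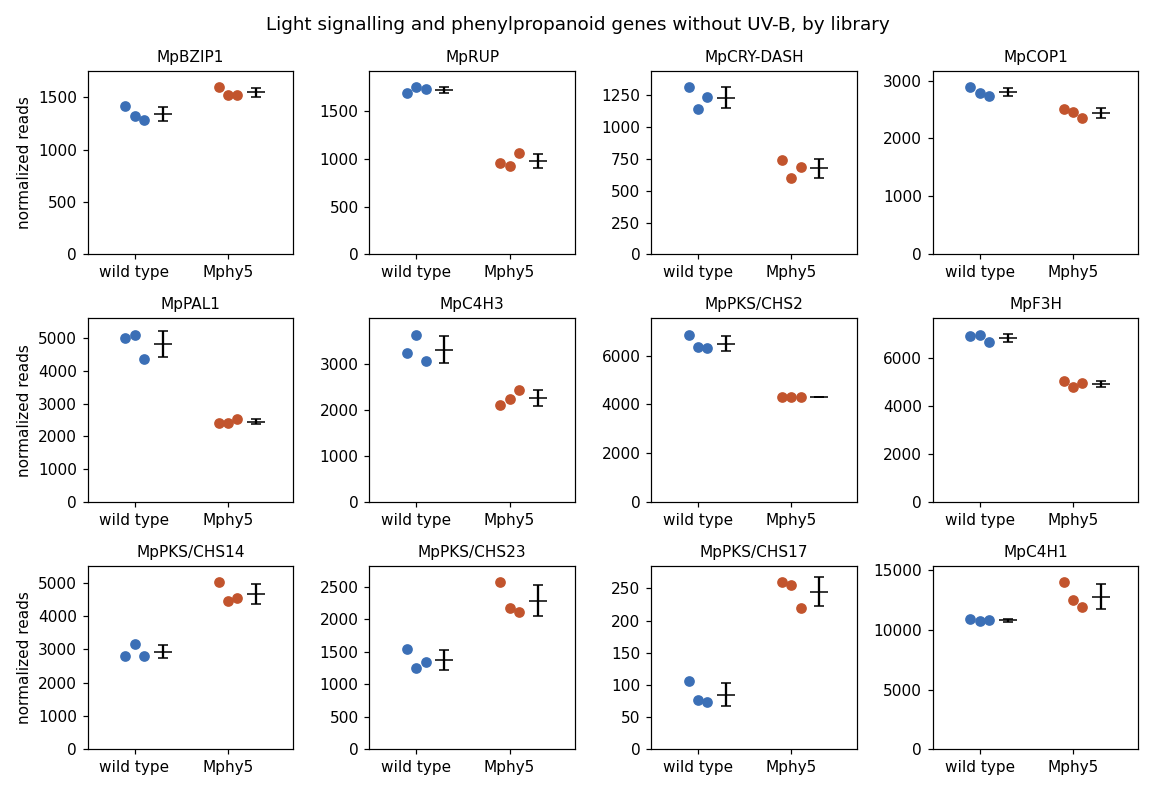
Normalized reads in each library without UV-B for 12 genes of light signalling, phenylpropanoid and flavonoid synthesis, with every vertical axis starting at 0. Dots are libraries and the black bars beside them are the mean and SD of 3 libraries; MpRUP, MpCRY-DASH, MpCOP1, MpPAL1, MpC4H3, MpPKS/CHS2 and MpF3H lie lower in Mphy5 and the other 5 genes higher.

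The phenylpropanoid pathway and the flavonoid branch that leads off it moved in both directions. In this pathway phenylalanine ammonia-lyase (PAL), cinnamate hydroxylase (C4H) and coumarate ligase (4CL) make the activated acids from which chalcone synthase builds flavonoids. Of 16 entry genes 5 were higher and 2 lower (median 0.22), beside 11% and 13.9% over all genes tested. MpPAL1 (Mp1g10150) had 5016, 5097 and 4369.7 in wild type and 2398, 2415 and 2543 in Mphy5 normalized reads, 1.96-fold lower in Mphy5 (log2 fold change -0.97, SE 0.09, limma adjusted p = 4.5e-06). MpC4H3 (Mp8g05080) had 3244, 3634 and 3058 in wild type and 2099.7, 2249.8 and 2429.5 in Mphy5, 1.46-fold lower. Mp4CL2 and MpC4H1 were higher by 1.19- and 1.18-fold.

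The chalcone synthase family was weighted towards higher values. Of 26 tested members 13 were higher and 1 was lower, beside 11% and 13.9% over all genes tested. The median log2 fold change was 0.60. With 1 library left out the higher count was 9 to 12. Without Mphy5 replicate 1 there were 2 lower members. MpPKS/CHS14 (Mp4g14190) had 2815, 3170 and 2818 in wild type and 5011, 4468 and 4536 in Mphy5 normalized reads (1.59-fold, limma adjusted p = 7.8e-08). MpPKS/CHS17 had 105, 76.1 and 72.9 in wild type and 259, 256 and 219 in Mphy5, 2.90-fold higher, and MpPKS/CHS23 was 1.66-fold higher (adjusted p = 1.9e-06). The lower member was MpPKS/CHS2 (Mp2g07060), with 6850.4, 6344 and 6303 in wild type and 4309, 4315 and 4305 in Mphy5. The 3 Mphy5 libraries were nearly equal, and it was 1.51-fold lower (adjusted p = 1.3e-07). In the libraries with UV-B, 12 members were higher and 1 lower.

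Later flavonoid enzymes, the isomerases, hydroxylases and reductases that follow chalcone synthase, had 4 higher and 8 lower members of 28 (median -0.06). The shares over all genes tested were 11% higher and 13.9% lower. MpF3H (Mp1g26540), a flavanone hydroxylase, had 6925, 6964 and 6655 in wild type and 5049, 4784 and 4940.5 in Mphy5 normalized reads (1.39-fold lower, limma adjusted p = 1.2e-06). MpLAR-like5 was 1.37-fold lower and MpDFR-like5, related to dihydroflavonol reductases, 2.82-fold lower. Against these, MpDFR-like16 (Mp8g02830) had 169, 230.2 and 194 in wild type and 1270, 1060.5 and 1252 in Mphy5, 6.05-fold higher (adjusted p = 1.1e-12). Single values of PKS/CHS, POD, PPO, DIR, PR and histone genes are uncertain, because near-identical copies may share reads and the sources used here do not say how such reads were counted.

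Among genes of phenolic coupling and oxidation, peroxidases and dirigent proteins had more higher than lower calls, while over all genes tested 11% were higher and 13.9% lower. Class III peroxidases oxidise phenolics with hydrogen peroxide, among other places in the cell wall, and dirigent proteins steer the coupling of phenoxy radicals in plants that make lignans. Of 146 peroxidases 39 were higher and 19 lower (median 0.21). The lower count was 12 without Mphy5 replicate 1, 9 without Mphy5 replicate 2 and 10 without wild type replicate 2. MpPOD52 (Mp5g01640), MpPOD54 (Mp5g01660) and MpPOD55 (Mp5g01670), which lie close together in gene order, were each higher, by 2.02-, 4.70- and 8.72-fold (limma adjusted p = 1.7e-05 at most). MpPOD54 had 62.4, 107 and 46.2 in wild type and 291, 357 and 320.0 in Mphy5 normalized reads, with the lowest Mphy5 library well above the highest wild type library.

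Of 48 dirigent genes 18 were higher and 7 lower (median 0.30), beside 11% and 13.9% over all genes tested. MpDIR17 (Mp7g06220) had 17780, 18699 and 18996 in wild type and 34033, 27324 and 25537 in Mphy5 normalized reads (1.55-fold, limma adjusted p = 2.2e-05) and MpDIR22 223, 208 and 194 in wild type and 588, 433 and 391 in Mphy5 (2.22-fold). MpDIR65 had no read in wild type and 51.0, 21.1 and 10.6 in Mphy5, at least 9.35-fold higher, with a wide spread between the 3 libraries. Replicate 1 was the highest Mphy5 library for each of these 3 genes. Polyphenol oxidases, copper enzymes that turn phenols into quinones, had 6 higher and 9 lower members of 43 (median -0.15). MpPPO37 (Mp6g17780) had 13786, 12124 and 13067 in wild type and 7390.1, 7313 and 6865 in Mphy5, 1.81-fold lower (adjusted p = 4.6e-10), and MpPPO48 was 1.98-fold lower, while MpPPO32 was 3.31-fold higher.

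Genes named for pathogenesis-related proteins and for hydrolases of chitin and glucan, 3 families chosen after the values were seen, were also weighted towards Mphy5. Of 32 pathogenesis-related genes 13 were higher and 3 lower, beside 11% and 13.9% over all genes tested. Their median log2 fold change of 1.06 was the highest of the lists and families examined. MpPR5b (Mp2g24470), of the thaumatin-like class, had 807, 759 and 638 in wild type and 2555, 2320 and 2057 in Mphy5 normalized reads (3.15-fold, limma adjusted p = 3.9e-09). MpPR1m was 2.19-fold higher and MpPR1a had no read in wild type against 45.5, 14.8 and 30.1, at least 10.2-fold higher. MpPR1 went the other way, with 80.7, 82.1 and 66.7 in wild type and 7.59, 8.58 and 11.4 in Mphy5. Chitinases of family GH19 had 7 higher and 3 lower members of 14 (median 0.60), and glucanases of family GH17 7 and 3 of 23 (median 0.25). MpGH19.7 had 2379.8, 2719.6 and 2770.5 in wild type and 938, 857 and 715 in Mphy5 (3.15-fold lower), MpGH19.5 was 2.05-fold higher, MpGH17.2 1.78-fold higher and MpGH17.21 1.47-fold lower.

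Oxylipin genes were more often higher and terpene synthase genes more often lower, in counts that were not tested as groups. Lipoxygenases oxygenate fatty acids in the first step towards oxylipins such as dn-OPDA, the jasmonate hormone of Marchantia, and JAZ proteins repress the response to it. Of 22 genes 8 were higher and 1 was lower (median 0.28), beside 11% higher and 13.9% lower over all genes tested. There were 2 lower members without Mphy5 replicate 1 and 3 in the fit of only the 6 libraries. MpLOX2 (Mp2g23380) had 6810, 6942 and 6835 in wild type and 12140, 9986 and 9292 in Mphy5 normalized reads (1.52-fold, limma adjusted p = 2.3e-05), MpLOX7 was 1.72-fold higher, MpCYP74N2 1.24-fold and MpJAZ 1.25-fold. Of 20 terpene synthase genes 0 were higher and 7 lower (median -0.25). 1 was higher without wild type replicate 2, after TMM rescaling and in edgeR. Beside MpTPS6 and MpMTPSL22, MpMTPSL2 (Mp3g18500) had 1424, 1400.3 and 1321 in wild type and 592, 592 and 574 in Mphy5, 2.36-fold lower (adjusted p = 3.4e-09).

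Oil body cells are the single cells in which Marchantia stores terpenoids. Of 5 genes of oil body formation 3 were higher, beside 11% over all genes tested. MpSYP12B, a syntaxin gene of the oil body membrane, had 249, 339 and 289 in wild type and 475, 545 and 550.4 in Mphy5 normalized reads (1.80-fold, limma adjusted p = 3.8e-05), and the transporter gene MpABCG1 and the factor gene MpR2R3-MYB2 were 1.46- and 1.28-fold higher. MpERF13, another factor of oil body formation, was at 1.23-fold and not called (adjusted p = 0.063), but it was called in DESeq2 (0.0383), edgeR (0.049), the fit of only the 6 libraries (0.0464) and without the trend and robust options (0.0392). The remaining gene of the list, at a log2 fold change of 0.075, was not called. The samples are whole plants, so fewer or more cells of a type and less or more RNA per cell cannot be told apart.

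Other enzymes of specialised metabolism were divided. Cytochromes P450 had 20 higher and 24 lower members of 108, beside 11% higher and 13.9% lower over all genes tested. MpCYP829F4 (Mp5g21950) had 166, 195 and 139.6 in wild type and 925, 918 and 716 in Mphy5 normalized reads (5.10-fold, limma adjusted p = 4.1e-10), MpCYP704-like12 was 3.05-fold lower and MpCYP829H1 1.47-fold lower. Dioxygenases that use 2-oxoglutarate had 2 higher and 9 lower of 32. MpDOXC20 (Mp3g19390) had 1316, 1445 and 1283 in wild type and 429, 475 and 451 in Mphy5, 2.98-fold lower (adjusted p = 7.6e-11), and MpDOXC18 and MpDOXC6 were 1.39- and 1.57-fold lower. UDP-glycosyltransferases, which add sugars to small molecules, had 5 higher and 8 lower of 35. The higher count was 3 without Mphy5 replicate 2, wild type replicate 1 or wild type replicate 2, and the lower count was 5 without Mphy5 replicate 2 and without the trend and robust options. MpUGT22 was 2.38-fold lower, MpUGT25 1.40-fold and MpUGT9 1.27-fold, and MpUGT21 had 24.8, 25.02 and 20.5 in wild type and no read in Mphy5, at least 8.75-fold lower.

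Proton ATPase and ammonium transporter genes had more lower than higher calls. Plasma membrane proton ATPases build the proton gradient that drives uptake. Both are families chosen after the values were seen. Of 17 proton ATPase genes 2 were higher and 7 lower (median -0.38), with 1 higher without Mphy5 replicate 2, Mphy5 replicate 3, wild type replicate 1 or wild type replicate 3. MpHA11 (Mp3g07700) had 6116, 5084 and 5193 in wild type and 1482, 1167 and 1593 in Mphy5 normalized reads (limma adjusted p = 0.001), MpHA2 and MpHA14 were 1.54- and 1.34-fold lower and MpHA8 was 1.37-fold higher. Of 10 ammonium transporter genes 0 were higher and 6 lower (median -0.55). MpAMT1.2 (Mp6g08310) had 17188, 19782 and 19134 in wild type and 12953, 13000 and 11799 in Mphy5 (1.48-fold, adjusted p = 1.4e-06) and MpAMT2.4 was 3.56-fold lower. ABC transporters had 11 higher and 20 lower of 76 (median -0.06), with 7 higher without wild type replicate 2 and without the trend and robust options. MpABCB11 and MpABCI7 were 1.61- and 1.56-fold lower, and MpABCG23 and MpABCG31 1.51- and 1.43-fold higher. By symbol, NPF genes had 4 higher and 6 lower of 30 and MATE genes 2 and 2 of 13. Over all genes tested 11% were higher and 13.9% lower.

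Growth-related genes moved in several directions. Expansins loosen the cell wall, and together with exordium-like genes they had 6 higher and 16 lower members of 41 (median -0.22). The shares over all genes tested were 11% higher and 13.9% lower. MpExpansin6 had 20621, 23208 and 22410 in wild type and 17145, 16466 and 16393 in Mphy5 normalized reads (1.32-fold lower, limma adjusted p = 1.4e-06), MpExpansin16 and MpExpansin15 were 1.42- and 1.27-fold lower, and MpExpansin2 was 1.21-fold higher. Cellulose synthase-like D genes, a family chosen after the values were seen, had 1 higher and 5 lower of 10, with 2 higher in edgeR. MpCSLD5, MpCSLD4 and MpCSLD1 were 1.84-, 1.43- and 1.39-fold lower.

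Auxin genes had 9 higher and 2 lower members of 31 (median 0.10). The efflux carrier gene MpPIN3 had 1355, 1405 and 1568 in wild type and 3088, 2535 and 2679 in Mphy5 normalized reads (1.91-fold, limma adjusted p = 0.00085), and MpPIN1, the response gene MpSAUR1 and the response factor gene MpARF3 were 1.21-, 1.35- and 1.19-fold higher. Of 43 genes of dividing cells (histones, cyclins and replication factors) 14 were higher and 2 lower, beside 11% and 13.9% over all genes tested. That count depended on single libraries: 7 were higher without Mphy5 replicate 1, 8 without Mphy5 replicate 2, 5 without wild type replicate 2 and 7 without the trend and robust options, and 1 was lower without Mphy5 replicates 2 or 3, wild type replicates 1 or 2, or those options. In the libraries with UV-B 30 of the list were higher and 2 lower, beside 13.8% and 16% over all genes tested. MpCYCD_2 (Mp1g24670), a D-type cyclin of the entry into the cell cycle, had 1376, 1235 and 1389 in wild type and 2922, 2991 and 3157 in Mphy5 and was 2.27-fold higher (adjusted p = 1.3e-09). MpCYCD_1 and MpH3.3a were 1.21- and 1.21-fold higher and MpH2B.1 1.24-fold lower.

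The AP2/ERF and WRKY, bHLH, MYB and bZIP lists of transcription factors had more higher than lower calls. Over all genes tested 11% were higher and 13.9% lower. AP2/ERF and WRKY genes had 10 higher and 2 lower of 34 (median 0.15). MpERF17 (Mp4g22280) had 147, 109 and 107 in wild type and 451, 437 and 434 in Mphy5 normalized reads (3.66-fold, limma adjusted p = 4.1e-08), MpWRKY14 was 3.30-fold, MpERF14 2.30-fold and MpERF1 1.23-fold higher. Of 41 bHLH genes 11 were higher and 5 lower, with 6 higher without wild type replicate 1, 7 without wild type replicate 3 and 7 without the trend and robust options, and with 3 lower without Mphy5 replicate 3 or wild type replicate 3. MpBHLH3 had 403, 388 and 449.6 in wild type and 1003, 988 and 924 in Mphy5 (2.35-fold, adjusted p = 4.7e-10), MpBHLH10 was 1.39-fold higher, and MpBHLH12 and MpBHLH16 were 1.46- and 1.45-fold lower.

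MYB genes had 6 higher and 2 lower of 36, beside 11% and 13.9% over all genes tested. There were 3 higher without Mphy5 replicate 2 or wild type replicate 2, none lower without Mphy5 replicate 3, and 1 lower without Mphy5 replicates 1 or 2, wild type replicates 2 or 3, or the trend and robust options. Mp1R-MYB7 and MpR2R3-MYB17 were 1.27- and 1.17-fold higher (limma adjusted p = 2.9e-06 and 0.0053), and MpR2R3-MYB5 was 1.16-fold lower, a call lost without Mphy5 replicate 3 (adjusted p = 0.0547). Of 13 bZIP genes 4 were higher, MpBZIP1 among them. The others, MpBZIP6, MpBZIP3 and MpBZIP4, were 1.12-, 1.12- and 1.13-fold higher with adjusted p-values of 0.022, 0.023 and 0.028, and lost their calls in 3, 4 and 6 of the alternative fits, with adjusted p-values of up to 0.112, 0.0825 and 0.148. The count of higher bZIP genes was 1 without Mphy5 replicate 1 or wild type replicate 3 and 2 without Mphy5 replicate 2 or wild type replicate 2.

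Genes listed as antioxidant enzymes, a glutathione transferase gene among them, had 5 higher and 13 lower members of 61. The shares over all genes tested were 11% higher and 13.9% lower. The higher count was 8 after TMM rescaling and in edgeR, and 3 without wild type replicate 2 or 3 or the trend and robust options. MpDHAR1 (Mp1g12540), a dehydroascorbate reductase of ascorbate recycling, had 5272, 5241 and 5261 in wild type and 2799, 2667 and 2801 in Mphy5 normalized reads, 1.91-fold lower (limma adjusted p = 4.4e-12). MpMDHAR1, which recycles ascorbate as well, the glutathione peroxidase gene MpGPX2 and the glutathione transferase gene MpGST37 were 1.29-, 1.32- and 1.47-fold lower. Among the few pigment genes with a symbol, 3 of 5 were lower. MpGUN5 and MpCHLD, named for subunits of the magnesium chelatase of chlorophyll synthesis, were 1.22- and 1.19-fold lower (adjusted p = 0.00039 and 0.001) and MpHY1, a haem oxygenase gene, 1.13-fold (0.0098), a call lost without Mphy5 replicate 3 (0.0565).

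Of 10 abscisic acid genes 1 was higher and 3 were lower. MpABA1, named for the epoxidase step of abscisic acid synthesis, had 8978, 9149 and 9081 in wild type and 7939, 6810.2 and 7166 in Mphy5 normalized reads (1.24-fold lower, limma adjusted p = 0.00025). The remaining calls were fragile. MpNCED, MpSLAC1 and MpSNRK2A had adjusted p-values of 0.03, 0.032 and 0.026, and of up to 0.098, 0.153 and 0.12 in the alternative fits. The list held 1 lower member without Mphy5 replicate 2, wild type replicate 2 or wild type replicate 3, and it held no higher one without Mphy5 replicates 1 or 3, wild type replicates 1 or 2, or the trend and robust options. Late embryogenesis abundant proteins, which accumulate on drying, had 4 higher and 5 lower of 66, a smaller share than that of all genes tested. MpLEA-like25 had 111, 102 and 89.3 in wild type and 33.6, 15.6 and 30.9 in Mphy5 (3.84-fold lower, adjusted p = 1.6e-05), MpLEA-like3 was 1.51-fold lower, and MpLEA-like49 and MpLEA-like8 2.53- and 1.22-fold higher. Cupin genes had 7 higher and 11 lower of 59, beside 11% higher and 13.9% lower over all genes tested. MpCupin3 was 2.10-fold higher, MpCupin65 2.27-fold lower, and MpCupin2 had 21.1, 18.0 and 13.3 in wild type and no read in Mphy5, at least 6.53-fold lower. Of 6 heat shock genes 1, MpHSP90-4, was called (1.10-fold lower, adjusted p = 0.037), and none was called after TMM rescaling, in edgeR, in the fit of only the 6 libraries, without the trend and robust options, or without Mphy5 replicates 2 or 3 or wild type replicates 1 or 2, with adjusted p-values of MpHSP90-4 up to 0.227.

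Of 6 genes of rhizoids, gemma cups and the karrikin pathway 1 was lower. This was MpKAI2B (Mp2g04930), of the karrikin receptor family, with 2118, 1983 and 2107 in wild type and 1265, 1108 and 1232 in Mphy5 normalized reads (1.72-fold, limma adjusted p = 1.3e-07). MpGCAM1, a factor needed for gemma cups, had 89.9, 57.0 and 58.5 in wild type and 137, 158 and 147 in Mphy5, 2.17-fold higher values on average and no overlap, and MpKAR had 2640.2, 2757 and 2632 in wild type and 3279, 2964 and 2774 in Mphy5. Neither passed the threshold (adjusted p = 0.052 and 0.051), but both were called with the replicate number as a block (limma adjusted p = 0.0241 and 0.0449). In DESeq2 and edgeR 2 of the list were higher, and 1 after TMM rescaling, with a filter at 5, with a pseudocount of 5, in the fit of only the 6 libraries, without Mphy5 replicate 3 and without wild type replicate 1. MpMAX2 was not called (-0.13). The shares over all genes tested were 11% higher and 13.9% lower. Of 5 genes of sexual organs, MpCEN1 was 1.19-fold higher, MpRKD was at 1.04-fold and not called, and MpPRM and MpLC7, markers of male organs, stood at 0 to 6.01 in every library. None of 3 repair genes and none of 7 reference genes was called, and the latter had a median of 0.09, with MpAPT, MpACT2, MpTUB2 and MpACT1 at 0.13, 0.11, 0.10 and 0.09. 1 reference gene was called in the fit of only the 6 libraries.

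Lipid transfer proteins and pentatricopeptide repeat proteins, which bind RNA in plastids and mitochondria, were families chosen after the values were seen. Of 11 lipid transfer genes 4 were higher and 0 lower, with MpLTP-like63 at 2.94-fold, MpLTP-like68 at 1.32-fold and MpLTP-like66 at 1.16-fold (limma adjusted p = 2.9e-06, 0.0006 and 0.0094). The call of MpLTP-like66 was lost without Mphy5 replicate 1 (0.052), wild type replicate 1 (0.0717) or the trend and robust options (0.0625). Of 73 pentatricopeptide repeat genes 0 were higher and 17 lower, beside 11% higher and 13.9% lower over all genes tested. The lower count was 11 without Mphy5 replicate 2, 9 without Mphy5 replicate 3, 11 without wild type replicate 1 and 10 without wild type replicate 2. MpPPR_28 (Mp3g17160) had 2479.7, 2483 and 2315 in wild type and 2063, 1576 and 1505 in Mphy5 normalized reads, with Mphy5 replicate 1 closest to wild type, and was 1.43-fold lower. MpPPR_16 and MpPPR_4 were 1.34- and 1.25-fold lower.

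**Figure D3:**
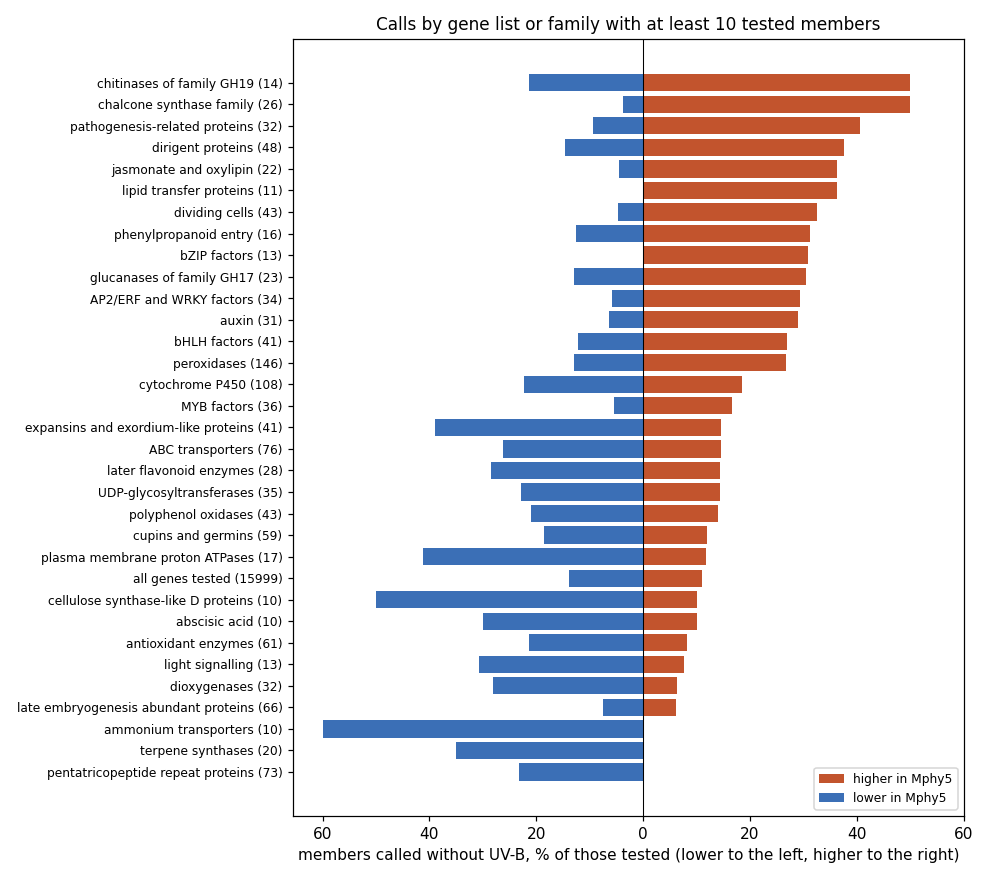
Share of the tested members of each gene list or symbol family called higher (bars to the right) or lower (bars to the left) in Mphy5 without UV-B, for lists of at least 10 members, with the number tested in brackets. All genes tested, at 11% higher and 13.9% lower, serve as the background; the chalcone synthase, GH19 and pathogenesis-related families reach furthest to the right and the ammonium transporters furthest to the left.

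Some genes were present in one line and at or near the floor in the other. The limits were at most 3 reads in every library of one line and at least 50 normalized reads in every library of the other. By this rule 24 genes passed with wild type as the higher line and 9 with Mphy5. It was set after the values were seen. Of these genes, 14 and 4 had no read in the other line. Without symbols, the highest of them in wild type were Mp8g04945 with 1401, 1454 and 1343, Mp3g07970 with 939, 978 and 897, Mp4g20540 with 763, 844 and 774, Mp6g09290 with 674, 671 and 665 and MpVg00700, on the male chromosome, with 488, 487 and 508 normalized reads. None of these 5 had a read in any Mphy5 library, so that they were at least 185- to 522-fold lower. In Mphy5 the highest were Mp7g06490 with 1843, 1898 and 1874, against 1 read in the 3 wild type libraries together, and Mp6g10280 with 1156, 1114 and 1146 and Mp4g19890 with 737, 994 and 947, both without a wild type read and at least 387- and 303-fold higher. All 24 and all 9 were called in the same direction in the libraries with UV-B, where 17 and 4 met the same limits.

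Among all called genes, 30 higher ones had no read in wild type and 39 lower ones no read in Mphy5.

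Large differences were unevenly placed along the genome. By the chromosome in the gene identifier, genes at least 2-fold different made up 7.74% of the tested genes of chromosome 3, 6.42% of chromosome 5 and 6.32% of chromosome 8, and 14% of the 50 tested genes of the V chromosome, but 3.42% of chromosome 6 and 3.57% of chromosome 1. In 156 windows of 100 consecutive tested genes the median was 4 such genes and the range 0 to 19, and 17 windows held at least 12. The highest window, with 19, ran from Mp3g09340 to Mp3g10540. It stood in a run of 5 windows on chromosome 3, from Mp3g08130 to Mp3g13995, with 13, 19, 14, 13 and 14. MpCYP704-like8, MpDOXC15 and MpTPS6 lie in this run.

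The next window by count, with 18, ran from Mp4g19080 to Mp4g20270. It holds MpUGT21 and MpUGT22, both lower in Mphy5, and 3 unnamed genes that were much higher. Mp4g19890 is described above, Mp4g19930 had 6.42, 16.0 and 16.4 in wild type and 4263, 5563 and 5176 in Mphy5 normalized reads, and Mp4g19960 had 5.50, 3.00 and 2.05 in wild type and 1278, 1302 and 1373 in Mphy5. Both directions thus occurred within 1 window. A window from Mp5g01220 to Mp5g02460 held 16 and contains the peroxidase neighbours MpPOD52, MpPOD54 and MpPOD55. The window that holds MpBZIP1 on chromosome 1, from Mp1g16510 to Mp1g17690, had 2. Positions are given as a description and were not tested.

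**Figure D4:**
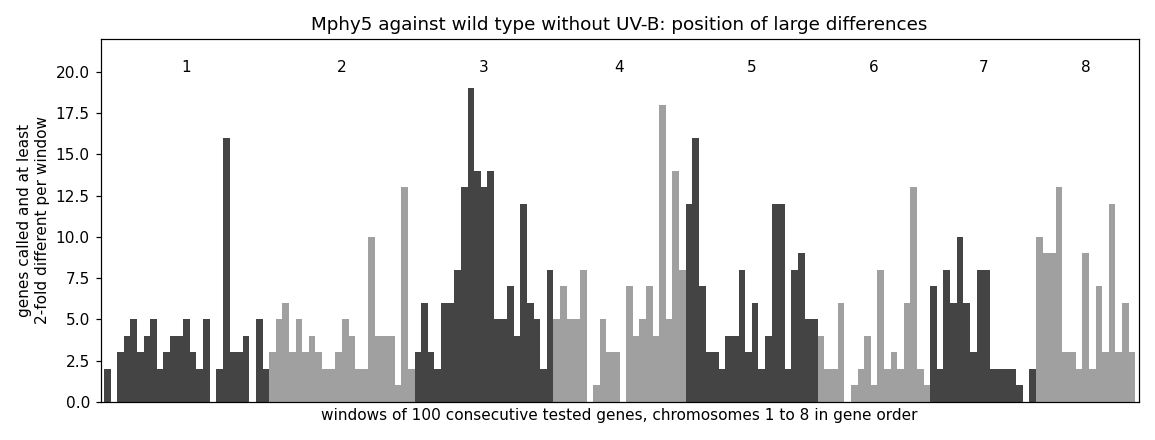
Number of genes called and at least 2-fold different between Mphy5 and wild type without UV-B (vertical axis) in windows of 100 consecutive tested genes along chromosomes 1 to 8 (horizontal axis, chromosomes in alternating shades with their numbers on top). The tallest bars are the window of 19 genes on chromosome 3 and that of 18 on chromosome 4.

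The differences were then looked up in the 6 libraries with UV-B, which come from the same lines. They enter none of the values and fold changes without UV-B given above, but share with them the estimate of spread behind the p-values. Over all tested genes 2209 (13.8%) were higher and 2557 (16%) lower in Mphy5 there. Of the 1764 genes higher without UV-B, 1054 (59.8%) were higher with UV-B too and 50 were lower. Of the 2222 lower genes, 1433 (64.5%) were lower and 45 higher. For differences of at least 2-fold the shares were 73.7% of the higher genes, with none called in the opposite direction, and 75.0% of the lower genes, with 4 opposite. The genotype effect itself differed between the light conditions for 714 genes (4.46%), of which 178 were among the genes higher without UV-B and 193 among the lower ones.

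Several light-signalling genes were exceptions. MpRUP, lower in Mphy5 without UV-B, was higher there with UV-B (log2 fold change -0.81 and 0.29; limma adjusted p of the difference = 1.9e-07). MpCOP1 and MpDET1 turned in the same way, from -0.20 to 0.82 and from -0.17 to 0.75, while MpCRY-DASH kept its difference (-0.87 and -0.83, adjusted p of the difference = 0.93). MpPAL1 and MpPKS/CHS2, lower without UV-B, had no call with UV-B (-0.20 and 0.03), and for both the difference between conditions was called (adjusted p = 0.0032 and 7.3e-05). Of the 15 largest rises and 15 largest falls with a symbol, the difference between conditions was called for MpDOXC15 (3.08 and 2.15, adjusted p = 0.0087), MpGH19.9 (2.73 and 1.61, 0.019), MpSQC2 and MpCKX2. It was not called for the others, with MpCYP704-like8 at 5.79 and 5.50, MpPOD76 at 3.91 and 3.70, and MpPOD13 at -4.69 and -4.29, but also MpRLK-Pelle_WAK1 at -7.27 and -5.25 and MpCupin85 at -4.59 and -2.51. MpSQC2 was further apart with UV-B (-2.84 and -4.56, adjusted p of the difference = 0.0023) and MpCKX2 less so (-2.23 and -1.09, 0.0016).

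**Figure D5:**
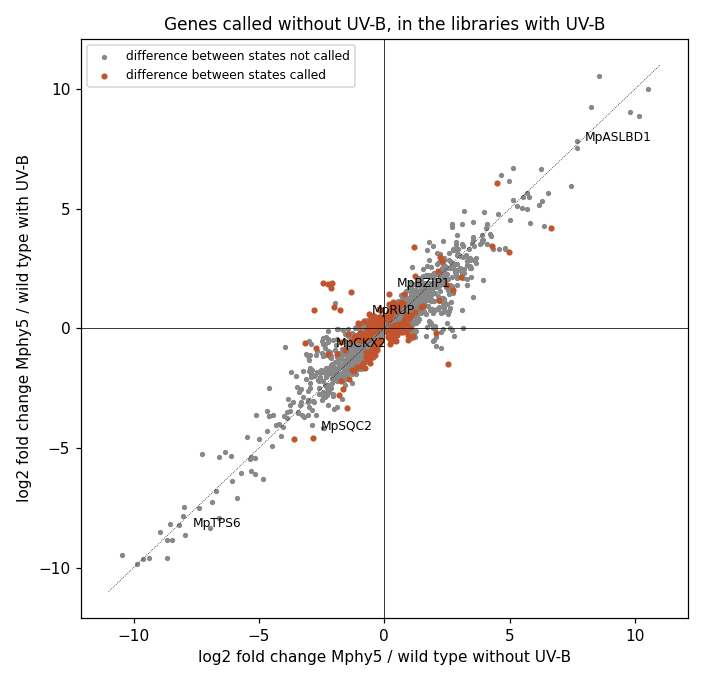
Log2 fold change of Mphy5 over wild type with UV-B (vertical axis) against that without UV-B (horizontal axis) for the genes called without UV-B, each axis from 6 libraries of its own; the dotted line marks equal values. Genes whose effect differed between the conditions are in orange, and MpRUP lies on the other side of zero with UV-B.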

How the data were processed

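Libraries were made with Illumina TruSeq from total RNA and read as single ends of 100 bases, per the labels' protocols. The submitters' processing notes name STAR 2.7.4 as the aligner. The sources used here give no build, annotation, counter or use of strand. The authors deposited a normalized signal per gene, in which each library's nonzero values (100%, tolerance 0.02 reads) are multiples of a single step. They are therefore read counts over a size factor, from which whole reads were recovered.

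Gene symbols were looked up in RefSeq's gene table for assembly MpTak2_v7.1, in which 18082 of 18255 identifiers (99.1%) were found and 3110 had a symbol. No coordinates or sequences were used.

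limma 3.58.1 (R 4.3.3) was fitted to log2(value + 1) on the 12 libraries, with a mean for each of 4 groups (8 residual degrees of freedom), the trend and robust options, and Benjamini-Hochberg adjustment over 15999 genes. Fold changes are on this scale, which understates those of low genes. Where a line had no read, a lower bound against 3 reads per library replaces the fold. Floors cover counting error only.

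The comparison, 33 gene lists taken by symbol, and the rules were chosen with earlier results of these data known. Named are the 15 largest rises and 15 falls with a symbol and 5 of each without, among called genes whose lines do not overlap and whose higher mean is at least 51.63, MpBZIP1, all light-signalling genes, up to 4 genes per list by adjusted p, and 3 genes of each of 8 families chosen after the values were seen. The choices varied were the pseudocount (0.1 and 5), the filter (none, or 5), the scaling (TMM, median ratio), the libraries fitted (only these 6, or each left out), the replicate number as a block, limma's trend and robust options, a 2-fold minimum, and the tool, with edgeR 4.0.16 and DESeq2 1.42.0 on recovered reads. Fits were tested on simulated data. Figures used Python 3.11.15 and matplotlib 3.10.9.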

Additional observations from a re-analysis of the deposited data

Results flagged for a closer look

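For 36 of the 188 named genes the genotype effect with UV-B differed from that without UV-B by limma's test of the difference, with adjusted p-values of 1.1e-08 to 0.043, and the values below are the effect with UV-B minus the effect without it on the log2 scale. All rest on 3 libraries per group. In light signalling and the clock the difference was 1.21 for MpBZIP1, 1.11 for MpRUP, 1.02 for MpCOP1, 0.92 for MpDET1, 2.01 for MpBBX2, 0.29 for MpBBX1, -0.241 for MpBBX5 and 0.673 for MpPRR. MpBBX2 had 54.1, 84.1 and 83.1 in wild type and 112, 93.6 and 81.4 in Mphy5 normalized reads without UV-B, where the lines overlapped, and 693, 667 and 602 in wild type against 3483, 3582 and 3236 in Mphy5 with UV-B.

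In phenylpropanoid and other specialised metabolism the difference was 0.778 for MpPAL1, 0.414 for MpPKS/CHS14, 0.617 for MpPKS/CHS2, 0.312 for MpF3H, -0.932 for MpDOXC15, 0.67 for MpDOXC20, 0.322 for MpUGT9, -0.603 for MpPPO37 and -1.72 for MpSQC2. MpSQC2 had 1066, 923 and 643 normalized reads in wild type and 34.3, 47.0 and 27.5 in Mphy5 with UV-B, so the lines lay further apart there. MpPKS/CHS2 was called lower without UV-B and had 59618, 64451 and 53414 against 58839, 62744 and 58648 with UV-B, where the lines overlapped.

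Hormone and growth genes gave 1.14 for MpCKX2, -0.618 for MpPIN1, -0.22 for MpExpansin2, 0.429 for MpCYCD_1, -0.311 for MpH2B.1 and 0.347 for MpMAX2. MpPIN1 was higher in Mphy5 without UV-B and lower with it (log2 fold changes 0.27 and -0.34). Genes of stress, transport and transcription gave -0.514 for MpLEA-like3, -0.519 for MpLEA-like8, 0.443 for MpDHAR1, 0.295 for MpHSP90-4, 0.321 for MpABCB11, 0.311 for MpR2R3-MYB5, -0.55 for MpBHLH3, -0.442 for MpBHLH12 and 3.98 for MpSLAC1. MpSLAC1 stood at 6.42, 11.01 and 6.16 in wild type and 2.17, 0 and 1.63 in Mphy5, in normalized reads without UV-B and at 0, 1.17 and 0 in wild type and 8.58, 2.43 and 2.39 in Mphy5 with UV-B, so its difference rests on a few reads per library. In the families chosen after the values were seen the difference was -1.12 for MpGH19.9, -0.887 for MpGH19.7, 0.46 for MpPPR_16 and -0.753 for MpLTP-like68.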

How the results depend on the processing

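Over 17 alternative fits the number of called genes ran from 3041 to 4220 against 3986, and no fit moved that count, or the counts of higher and lower genes, by more than 1.5 times. A 2-fold minimum left 829 genes, 453 higher and 376 lower. On recovered reads edgeR called 4024 genes and DESeq2 4220, of which 3786 and 3918 were shared with limma. Leaving out 1 library gave 3041 to 3678 calls, and dropping limma's trend and robust options 3254. The replicate block gave 4108 calls, 1821 higher and 2287 lower, and added those of MpFKF, MpKAR and MpGCAM1 (adjusted p = 0.031, 0.0449 and 0.0241) among named genes. Deviations of wild type and Mphy5 libraries with the same number correlated at -0.0019, 0.043 and 0.012. Those of libraries with different numbers correlated at -0.032 to 0.022. So few pairs cannot decide whether the numbers pair the samples. Of 3193 values of named genes under an alternative, 3113 kept their direction and their side of the threshold, 54 lost a call, 26 gained one and 0 reversed. The lost calls belonged to 12 genes, whose smallest effects lie near the threshold and are named above. Of 1394 counts of list members, 1305 stayed within 1.5 times. No list median changed sign under another scaling, and that of all genes went from -0.00085 to 0.011 with TMM. In a single simulated data set, 200 of 15999 genes were changed. There limma recovered 76.1% of 1.5-fold, 82.1% of 2-fold and 98.5% of 4-fold changes in this comparison. Of its calls 6.56% were false, slightly above the share the threshold aims at. Changes of 1.5- and 2-fold can thus be missed. Far fewer genes were changed there than the 3986 called here, so these shares may not carry over to the real comparison.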
